A study of Mus musculus with 4 samples.

Results

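Elf5, Cdx2, Eomes, Hand1, Gcm1, Tfap2c and Ets2 are transcription factor genes that act in the trophoblast, the lineage that forms the placenta. They were chosen by name as 7 gatekeepers of that lineage among 21631 RefSeq protein-coding genes of the mouse autosomes and X. Earlier results of these data were known at that time. Each locus was taken from 5 kb before to 5 kb after the gene in mm10, and the 7 loci held 3296 listed CpGs. Methylation was read by whole-genome bisulfite sequencing of genomic DNA from mouse embryonic stem cells, in 2 Ogt iKO and 2 control libraries. All 4 came from Ogt fl/fl cells, in which Ogt, the X-linked gene of the O-GlcNAc transferase, carries loxP sites. The Ogt iKO cells were kept with 4-hydroxytamoxifen (4-OHT) for 6 days and sorted for YFP+, and the control cells were kept for 6 days without it. Both groups grew on fibroblast feeders, which were sorted away with dead cells. Only the iKO cells met the drug and the YFP+ gate, so the effects of these and of the deletion cannot be told apart. Nothing in the labels says that replicates came from separate cultures, and p-values then measure only the spread between these libraries.

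The trophoblast and the embryo proper part early in development, and DNA methylation is one of the marks that keep embryonic stem cells from crossing over. Elf5 is the classic example: its promoter is methylated in embryonic stem cells and unmethylated in trophoblast stem cells, where Elf5 works in a loop with Cdx2 and Eomes to hold the stem cell state. Most developmental transcription factors instead have CpG islands, dense runs of CpGs that stay unmethylated whether or not the gene is used. Bisulfite reads do not separate methylcytosine from hydroxymethylcytosine, the product of the TET enzymes that bind OGT, so a level here is the sum of both. In DNA from many cells, fewer methylated cells and fewer methylated copies per cell cannot be told apart.

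The promoters differed in their number of CpGs, the sites at which methylation is read. RefSeq's table of GRCm38.p6 promoters, 250 bases before to 50 after each start, held 5 of the 7 genes in 6 entries, of which Elf5 had 2. A promoter in this table holds a median of 7 CGs, and 94.6% of its 32851 entries hold at least 1. The 4 sequences here contrast the CpG-poor and CpG-richer starts of Elf5 with an island gene and with Gcm1, in capitals wherever CG occurs on the strand shown. The first Elf5 start (chr2:103411848-103412147, plus strand) has 3 CGs, and 76.7% of all entries have at least as many. The second Elf5 start (chr2:103423818-103424117, plus strand) has 10, reached by 43.5% of entries. Cdx2 (chr5:147307200-147307499, minus strand) has 18, reached by 29.7%, and Gcm1 (chr9:78051708-78052007, plus strand) has 1. Eomes and Ets2, not shown, have 10 and 30.
Elf5, first start: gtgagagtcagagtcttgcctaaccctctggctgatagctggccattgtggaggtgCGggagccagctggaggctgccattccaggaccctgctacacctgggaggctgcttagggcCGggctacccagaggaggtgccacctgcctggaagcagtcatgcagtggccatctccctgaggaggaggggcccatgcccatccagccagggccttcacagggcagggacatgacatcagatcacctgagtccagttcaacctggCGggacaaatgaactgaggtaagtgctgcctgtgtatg
Elf5, second start: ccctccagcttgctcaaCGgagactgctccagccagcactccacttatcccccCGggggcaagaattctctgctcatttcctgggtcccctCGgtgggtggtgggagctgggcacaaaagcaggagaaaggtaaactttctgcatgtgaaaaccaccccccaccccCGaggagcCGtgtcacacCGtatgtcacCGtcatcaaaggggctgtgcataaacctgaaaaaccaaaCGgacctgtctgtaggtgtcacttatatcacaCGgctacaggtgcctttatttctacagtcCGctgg
Cdx2: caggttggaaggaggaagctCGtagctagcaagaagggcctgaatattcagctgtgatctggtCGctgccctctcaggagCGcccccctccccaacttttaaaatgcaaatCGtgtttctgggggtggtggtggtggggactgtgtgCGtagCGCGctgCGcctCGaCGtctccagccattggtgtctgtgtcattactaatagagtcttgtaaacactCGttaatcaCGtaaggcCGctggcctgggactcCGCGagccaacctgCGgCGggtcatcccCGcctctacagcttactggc
Gcm1: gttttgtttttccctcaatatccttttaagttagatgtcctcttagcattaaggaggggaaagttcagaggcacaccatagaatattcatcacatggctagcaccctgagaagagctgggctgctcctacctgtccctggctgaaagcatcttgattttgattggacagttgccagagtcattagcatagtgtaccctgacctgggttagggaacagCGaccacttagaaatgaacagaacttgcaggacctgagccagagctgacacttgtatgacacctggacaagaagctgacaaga

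The libraries were shallow and differed genome-wide. They held 64273609 to 79929994 CpG reads, a mean of 3.35 to 4.04 per listed CpG. Of the reads on the autosomes and X, 65.5% and 63.3% were methylated in the 2 iKO libraries against 70.3% and 73.8% in the 2 controls. Reads carried no molecular identifiers, so intervals and limits below cover counting error only. They also count every CpG of a fragment as a separate read, which makes them too narrow where CpGs share fragments. Depth over the Ogt gene, relative to the X, was 1.23 ± 0.0328 in iKO and 1.24 ± 0.0631 in control (SD, n = 2 each, 441 CpGs, two-sided exact permutation p = 1). The loxP-flanked stretch was not placed, so this whole-gene depth does not check the deletion. Promoter windows of the stem cell genes Pou5f1, Nanog, Zfp42 and Tdgf1, methylated in fibroblasts, lay between 0% and 14.3% in every library in all 6 of their windows. In 4 of the 6, both iKO libraries lay below both controls, against 34.3% of all 23907 promoter windows tested, and 2 of these are overlapping windows of Nanog. Zfp42 read 5.29% and 1.72% in iKO against 14.3% and 8.39%, the first Nanog window 3.45% and 4.00% against 7.77% and 12.3%, and the first Pou5f1 window 0% and 0% against 3.45% and 2.20%. Tdgf1 was not lower, at 3.37% and 0% in iKO against 0% and 0%. In the rest of the locus 3 of these 4 genes were called lower in iKO (limma-moderated fit), against 18.9% of the 21513 loci tested. The part of remaining feeder DNA in the results below was not tested. Of the fibroblast genes, Col1a2 and Thy1 lay at 5.19% to 12.7%, Col1a1 at 29.0% to 47.6% and the 2 windows of Postn at 71.4% to 89.0%.

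Elf5, an ETS factor of the trophoblast stem cell, was methylated at both of its starts in control cells, and at the second start both iKO libraries stood below both controls. Each start was given a promoter window from 1000 bp before to 500 bp after it. The window of the first start (chr2:103411098-103412597, 17 CpGs, 32 to 70 reads per library) read 71.9% and 72.9% in iKO and 77.8% and 78.1% in control. The groups did not overlap, but the difference was -5.59 points, with an adjusted p of 0.774 in the limma-moderated quasi-binomial fit over all windows. Over the CpGs read in every library the difference was 0.0199 points, and with 500 bp on either side of the start it was -10.96.

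The window of the second start (chr2:103423068-103424567, 38 CpGs, 93 to 138 reads) was 50.5% in iKO replicate 1, with a 95% Wilson interval of 40.6% to 60.5%. It was 55.4% (45.7% to 64.8%) in iKO replicate 2, 70.2% (61.6% to 77.7%) in control replicate 1 and 79.0% (71.5% to 85.0%) in control replicate 2. Both iKO libraries thus lay below both controls. The interval of iKO replicate 1 met neither control's, but CpGs that share fragments make these intervals too narrow. The mean was 53.0% ± 3.47 in iKO and 74.6% ± 6.18 in control (SD over the 2 libraries of each). The difference of -21.6 points had an adjusted p of 0.500 in the limma-moderated fit. The two-sided exact permutation p over the 4 libraries was 0.33, the smallest that 2 against 2 can give. This second window was taken up as a start of its own after its values were seen. Of 23907 promoter windows tested genome-wide, 0% were called at an adjusted p under 0.05 and at least 10 points, so the fit separated no promoter. At an unadjusted p under 0.05, 2363 windows passed, as did 2379 with edgeR and 2014 with limma on logit levels, and these tools also called 0.

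Both Elf5 windows had a mean of 60% or more over the 4 libraries, iKO included. Among the 6102 windows of this class, both iKO libraries lay below both controls in 47.2%, with a median difference of -8.39 points. A fall at least as large as at the second Elf5 start occurred in 370 of them, or 6.06%. At least the fall at the first start occurred in 3866, or 63.4%. As the iKO levels count toward the class, windows with larger falls from the same control level can drop out of it. The 6.06% may thus be too low.

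Within the second window the low levels of the iKO libraries were not spread evenly. In 250-bp steps, the last step, 250 to 500 bp past the start (8 CpGs, 16 to 43 reads), read 26.9% and 11.1% in iKO against 55.8% and 62.5% in control. In the step before the start the values were 53.3% and 44.0% against 61.1% and 71.4%, and one step further out they were 61.5% and 66.7% against 80.0% and 95.2%. In these 3 steps the groups did not overlap. In the other 3 steps they overlapped. The first 250 bp past the start read 45.8% in iKO replicate 1 but 95.5% in iKO replicate 2, against 85.7% and 83.3% in control. The step from 750 to 500 bp before the start (4 CpGs, 6 to 12 reads) read 83.3% and 33.3% in iKO against 72.7% and 66.7%, and the outermost, from 1000 to 750 bp before, 88.9% and 80.0% against 88.9% and 94.1%. Directly beyond the window the groups overlapped. The control libraries had at most 23 reads per step there and differed from each other. The step from 500 to 750 bp, with 1 CpG and 2 to 7 reads, read 0% and 0% in iKO and 33.3% and 0% in control. The step from 750 to 1000 bp (6 CpGs, 8 to 42 reads) read 9.52% and 16.7% against 0% and 43.5%. From 1000 to 1500 bp past the start the steps lay at 75% to 93.5% in all 4 libraries. With reads summed per group, 28 of the 38 CpGs of the window had a lower level in iKO, 5 a higher and 5 an equal one, at 1 to 8 reads per CpG and library. The window of the first start had 8 lower, 4 higher and 5 equal of its 17.

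**Figure D1:**
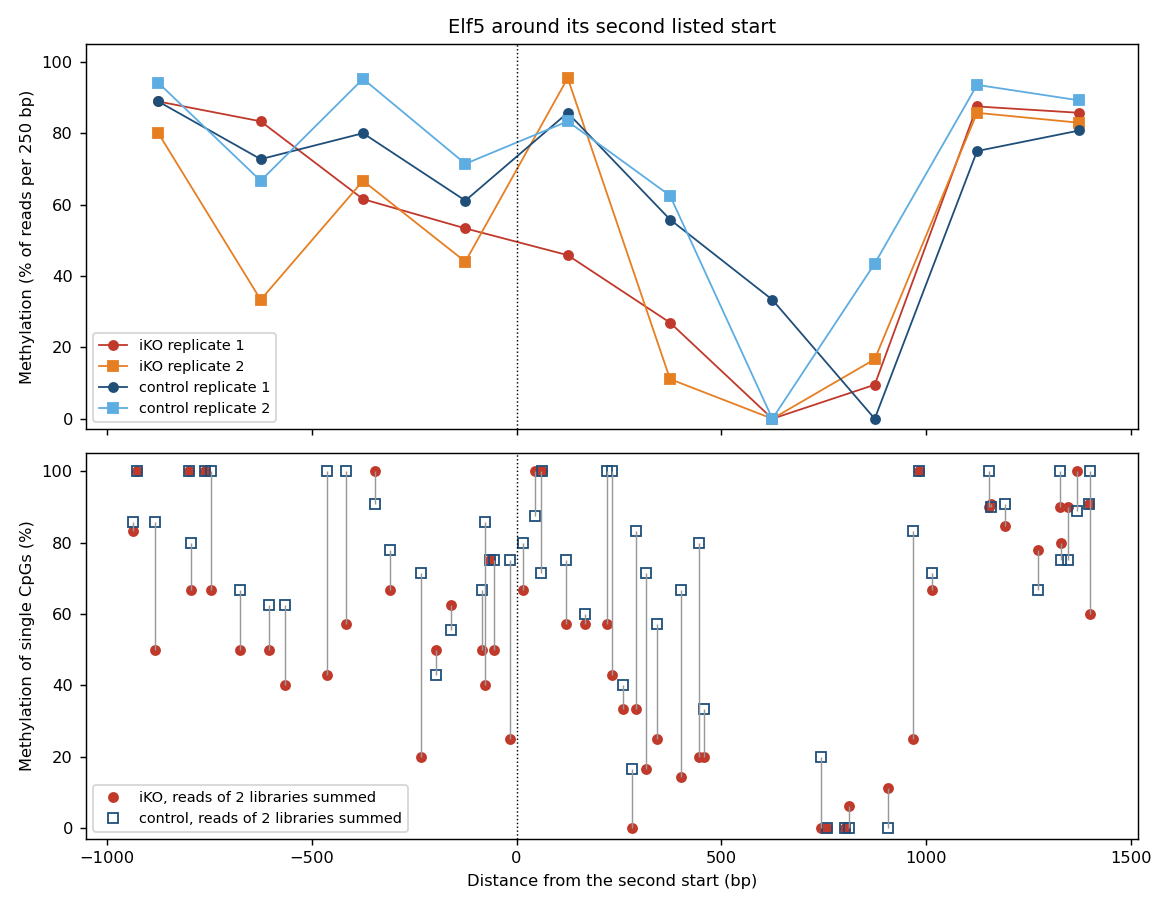
Methylation around the second start of Elf5 by distance from the start in bp (dotted line at 0). Top, percent of methylated reads per 250-bp step in each of the 4 libraries; bottom, level of each CpG with the reads of the 2 libraries of a group summed and a line joining the groups. Both iKO libraries lie below both controls in the step 250 to 500 bp past the start (26.9% and 11.1% against 55.8% and 62.5%), and all 4 lie at 75% or more from 1000 bp on; the step from 500 to 750 bp holds 1 CpG.

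Setting the second start against its own surroundings took out the level of the locus as a whole. The rest of the Elf5 locus, without the promoter windows (532 CpGs), read 66.5% and 67.7% in iKO and 71.7% and 78.3% in control. The second window minus this level was -16 and -12.2 points in the iKO libraries and -1.43 and 0.655 points in the controls. The difference between groups in this contrast was -13.7 points (-14.1 ± 2.66 against -0.388 ± 1.47, SD, n = 2 each, two-sided exact permutation p = 0.33, the smallest possible). It was -7.43 points with a window from 250 bp before to 50 bp after the start, and -8.34 points as an unweighted mean of CpGs. For the first window it was 5.33 and 5.17 points in iKO and 6.10 and -0.205 points in control. That contrast differed by 2.31 points with overlapping groups (exact permutation p = 1), and by -0.846 without control replicate 2.

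Elf5 was the only one of the 7 loci with no 1 kb bin under a mean of 20%. Of its 46 tested bins, 37 lay at 60% or more, and the lowest had a mean of 41.4% over the 4 libraries. A lower mean in iKO was found in 36, beside 782215 of the 972988 tested bins of all genes. The bin that holds the second start and the one after it were among the 36. The first of these, from 11 to 12 kb past the first start (chr2:103423098-103424097), read 66.7% and 54.8% against 76.3% and 80.0%. The next (chr2:103424098-103425097, 23 CpGs) read 22.4% and 40.6% against 55.4% and 63.8%, a difference of -28.1 points (adjusted p = 0.198, limma-moderated fit over the bins of all genes). The largest fall with groups apart was from 28 to 29 kb (chr2:103440098-103441097, 9 CpGs), at 33.3% and 48.3% against 75% and 67.7%, or -30.6 points (adjusted p = 0.250, same fit).

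Cdx2, the caudal-type homeobox factor that starts the trophoblast programme, and Eomes, the T-box factor that keeps trophoblast stem cells dividing, were nearly free of methylation at their starts in every library. The Cdx2 window (chr5, 71 CpGs) read 6.80% and 5.52% in iKO and 5.33% and 7.95% in control. The Eomes window (chr9, 64 CpGs) read 0.971% and 0.935% in iKO. In control it read 0%, which allows up to 1.35%, and 2.17%. For both genes the groups overlapped, with differences of -0.478 and -0.134 points.

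Cdx2 carried a run of 4 bins under 20%, from 1 kb before to 3 kb past its start (225 CpGs), at 3.42% and 2.17% in iKO and 1.91% and 2.35% in control. A second run, from 6 to 8 kb past the start (69 CpGs), read 7.41% and 6.10% against 10.05% and 4.28%. Eomes also carried 2 such runs, from 2 kb before to 2 kb past the start (237 CpGs) and from 8 to 12 kb past it (144 CpGs), and both lay at 4.01% or less in every library. The largest falls of these loci lay outside the runs, as they had to, since bins in a run were too low to fall so far. In Cdx2 it was the bin from 3 to 2 kb before the start (chr5:147309250-147310249, 11 CpGs), at 34.2% and 41.4% in iKO against 77.8% and 64.7%, or -33.4 points (adjusted p = 0.222, limma-moderated fit). In Eomes it was the bin from 4 to 5 kb past the start (chr9:118482189-118483188, 14 CpGs), at 26.4% and 32.1% against 70.0% and 50.0%, or -30.8 points (adjusted p = 0.205, same fit). Neither bin was called.

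Gcm1, the factor that drives syncytiotrophoblast formation, did not have the unmethylated start of an island gene. Its window (chr9:78050958-78052457, 16 CpGs) read 36.3% and 46.6% in iKO and 39.0% and 34.5% in control, and the groups overlapped. The rest of the Gcm1 locus read 58.5% and 60.7% in iKO against 69.5% and 70.5% in control. At -10.4 points (adjusted p = 0.0185, limma-moderated fit over all loci) it was the only member feature called, against 18.9% of all loci. The call was lost without iKO replicate 1 (-9.30 points, adjusted p = 0.164), without iKO replicate 2 (-11.4 points, 0.101) and without control replicate 2 (-9.88 points, 0.0557), in limma-moderated refits that take the spread of the lone library from the other group. The difference also fell short of 10 points over CpGs with at least 3 reads in every library (-9.95), with 500 bp on either side of the start as the window (-9.90) and with the window from 250 bp before to 50 bp after (-9.76). The window minus the rest of its locus was -22.3 and -14.1 points in iKO and -30.5 and -36.0 points in control, a contrast that differed by 15.1 points (two-sided exact permutation p = 0.33). The largest fall was the bin from 3 to 4 kb past the start (chr9:78054958-78055957, 8 CpGs), at 52.9% and 42.1% against 73.9% and 90.0% (adjusted p = 0.225, limma-moderated fit). The bin 5 to 4 kb before the start was the only one under 20%, at 10.4% and 15.1% against 16.9% and 34.8%.

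Hand1, a basic helix-loop-helix factor of trophoblast giant cells, and Tfap2c, an AP-2 factor shared by trophoblast stem cells and the germ line, were placed by the gene end with more listed CpGs. The Hand1 window there (chr11:57827713-57829212, 64 CpGs) read 2.40% and 6.38% in iKO and 3.96% and 3.21% in control. The window at its other end (chr11:57831648-57833147, 52 CpGs) read 20.2% and 13.7% against 23.4% and 15.96%, and at both ends the groups overlapped. The rest of the Hand1 locus read 26.3% and 30.03% in iKO against 37.8% and 37.3%, a difference of -9.38 points with groups apart (adjusted p = 0.0311, limma-moderated fit). The largest fall was the bin 3 to 2 kb outside the CpG-denser end (chr11:57825713-57826712), at 37.1% and 51.1% against 75.3% and 55.8% (adjusted p = 0.246, same fit).

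The Tfap2c window (chr2, 41 CpGs) read 14.4% and 5.13% in iKO against 8.16% and 8.33% in control, and the other gene end (35 CpGs) 68.9% and 53.1% against 64.6% and 65.5%. At each end the 2 iKO libraries lay on either side of the controls. Tfap2c held the longest run under 20% among the 7 loci, 8 kb and 371 CpGs, at 7.42% and 2.91% in iKO and 4.35% and 3.82% in control. The rest of its locus, at 40.7% and 26.9% against 34.2% and 37.0%, was the only one whose groups overlapped, and its difference of -1.78 points became 5.12 without iKO replicate 2. Its largest fall was the bin 15 to 16 kb past the CpG-denser end (chr2:172560678-172561677), at 40.4% and 31.3% against 65.0% and 62.5% (adjusted p = 0.200, limma-moderated fit). The bin from 6 to 7 kb (chr2:172551678-172552677, 33 CpGs), named after its values were seen, went the other way. It read 38.2% and 25.6% in iKO against 11.8% and 12.1% in control, or 19.96 points higher (adjusted p = 0.218, same fit).

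Ets2, an ETS factor needed for trophoblast growth, had the most CpGs of any member window (chr16, 116 CpGs), at 9.04% and 3.32% in iKO and 3.14% and 11.2% in control, with overlapping groups. Beyond it methylation rose steeply, and the rest of the locus read 69.3% and 67.1% in iKO against 75.2% and 78.7%, or -8.83 points (adjusted p = 0.0259, limma-moderated fit). The low run of Ets2 spanned only the 2 bins at the start (133 CpGs). The 4 bins within 2 kb of that run read 65.0% and 56.9% in iKO against 74.2% and 81.9%, a difference of -17.1 points with groups apart. Bins within 2 kb of the low runs of the other genes differed by -19.1 (Hand1) to -0.992 points (Tfap2c). There the groups overlapped at Tfap2c and at the start runs of Cdx2 and Eomes, and were apart at the rest. The share over all genes was not computed. The largest fall of Ets2 was among the 4 bins beside its run. It was the bin 2 to 1 kb before the start (chr16:95700407-95701406), at 64.6% and 57.1% against 76.9% and 90.9% (adjusted p = 0.299, same fit).

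**Figure D2:**
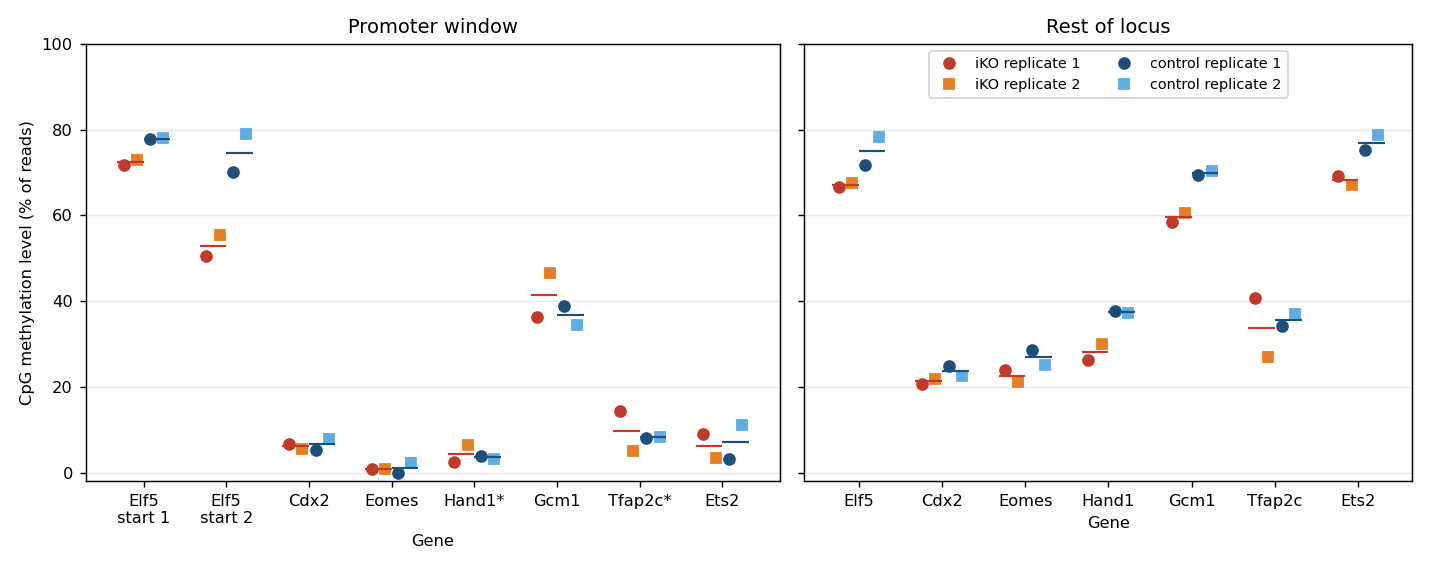
CpG methylation level (percent of reads) of the promoter windows (left) and of the rest of each locus (right) in the 4 libraries, with lines at the group means; an asterisk marks genes placed by their CpG-denser end. The second Elf5 start reads 50.5% and 55.4% in iKO against 70.2% and 79.0%, the windows of Cdx2, Eomes, Hand1, Tfap2c and Ets2 lie at 14.4% or less, and on the right only the groups of Tfap2c overlap.

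Over the 7 genes, promoter windows other than the second start of Elf5 differed by -5.59 to 4.69 points. The windows of Hand1 and Tfap2c were those at the CpG-denser gene end. The rest of the loci differed by -10.4 to -1.78 points, with a median near that of all loci. Their median control level was lower, at 37.5% against 72.2% over all loci. Of the 8 promoter windows, the 2 of Elf5 had both iKO libraries below both controls, against 34.3% of all windows tested, 0 had both above, against 7.37%, and 0 were called. The median difference was -0.306 points over the 8, beside -1.85 over all 23907. In the rest of the locus, 6 of 7 genes had groups apart and lower in iKO, against 86.1% of all loci, 0 were apart and higher, against 0.488%, and 4 of 7 (Elf5, Hand1, Gcm1 and Ets2) had an adjusted p under 0.05, against 48.9% (limma-moderated fit). The median difference was -7.89 points over the 7, beside -8.20 over all 21513. These shares lie near the background.

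Cdx2 (20.7% and 21.9% against 24.9% and 22.5%) and Eomes (24% and 21.2% against 28.6% and 25.1%) had groups apart in the rest of the locus as well, with differences of -2.43 and -4.28 points, at adjusted p of 0.408 and 0.170 (limma-moderated fit). For Elf5 the difference was -7.89 points (adjusted p = 0.0286, same fit). Taken from the mean over all loci in the same library, the rest of the Elf5 locus lay 5.80 and 8.92 points higher in iKO and 5.47 and 8.84 points higher in control. By this measure the groups were apart and higher in iKO for Cdx2 (5.67 points), Eomes (3.83) and Tfap2c (6.32), and apart and lower for Ets2 (-0.730). They overlapped for Elf5 (0.209), Hand1 (-1.28) and Gcm1 (-2.27). For Eomes the closest libraries lay at -37.57 in iKO and -37.60 in control, for Tfap2c at -31.8 and -32.0. Control means of Cdx2, Eomes and Tfap2c were 23.7%, 26.9% and 35.6%, against 67.8% over all loci. From such levels, a fall equal in proportion is smaller in points. The share of all loci with groups apart by this measure was not computed. Whether Elf5, Hand1 and Ets2 passed depended on single libraries, by the adjusted p of limma-moderated refits. Without iKO replicate 1 these were 0.125, 0.280 and 0.0903, without iKO replicate 2 they were 0.0871, 0.114 and 0.212, and without control replicate 2 they were 0.171, 0.0704 and 0.120. In the last of these the Elf5 difference shrank to -4.57 points, where that of Hand1 was -9.61. Without control replicate 1 the differences of Cdx2 and Eomes were -1.26 and -2.55 points. Without control replicate 1, Elf5 (-11.2 points, 0.00385) and Ets2 (-10.6 points, 0.0158) passed the size of 10 points as well, and Hand1 did not pass (0.0528). Over CpGs with at least 3 reads in every library none of the 3 passed (0.0731, 0.160 and 0.0734), and Ets2 did not with the window from 250 bp before to 50 bp after its start (0.0593).

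**Figure D3:**
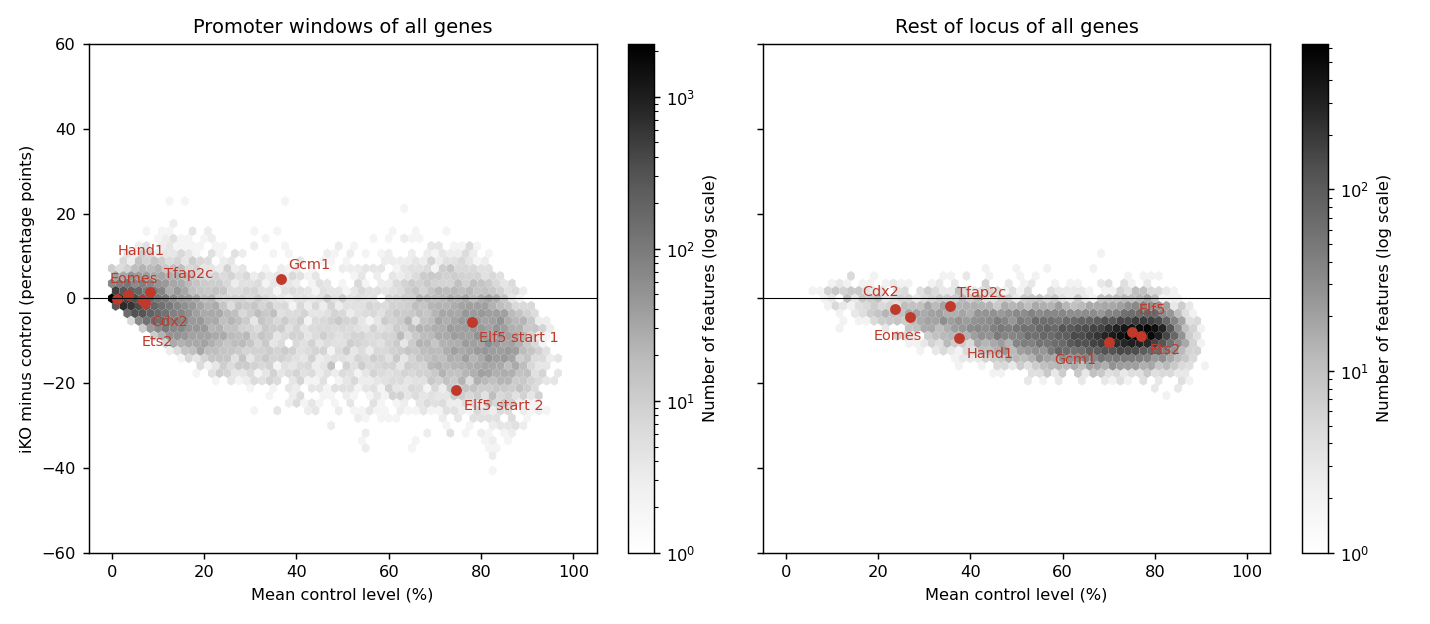
Difference of iKO minus control in percentage points against the mean control level, for the promoter windows (left, 23907) and the rest of the locus (right, 21513) of all protein-coding genes, shaded by their number on a log scale, with the members as red points. The second Elf5 start lies at -21.6 points below most windows of its level, and on the right all 7 members lie below 0.

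Over the 7 loci, bins with more CpGs tended to have lower control levels. Across the 164 tested bins of the 7 loci, the number of CpGs in a bin and its control level had a Pearson r of -0.758, but in Elf5 alone r was -0.100. The control level and the difference, which contains that level, had an r of -0.393. Bins of a locus share libraries and fragments, so these values describe the loci. Of the 164 bins, 131 had a lower mean in iKO, beside 782215 of the 972988 bins of all genes. In 59 of them both iKO libraries lay below both controls (42.2% of the bins of all genes), and in 8 both lay above (4.04%). None of the 164 was called, as against 0.000411% of all bins, which is 4.

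By level, the 30 member bins under 20% had a median difference of -0.0987 points, and 6 had groups apart and lower, against 25.8% of such bins. For the 37 bins from 20% to 60% the median was -10.3 points with 16 apart, against 47.1%. For the 97 bins of 60% or more it was -7.63 points with 37 apart, against 42.4%. The medians over all genes in these classes were -0.672, -10.9 and -8.14 points.

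**Figure D4:**
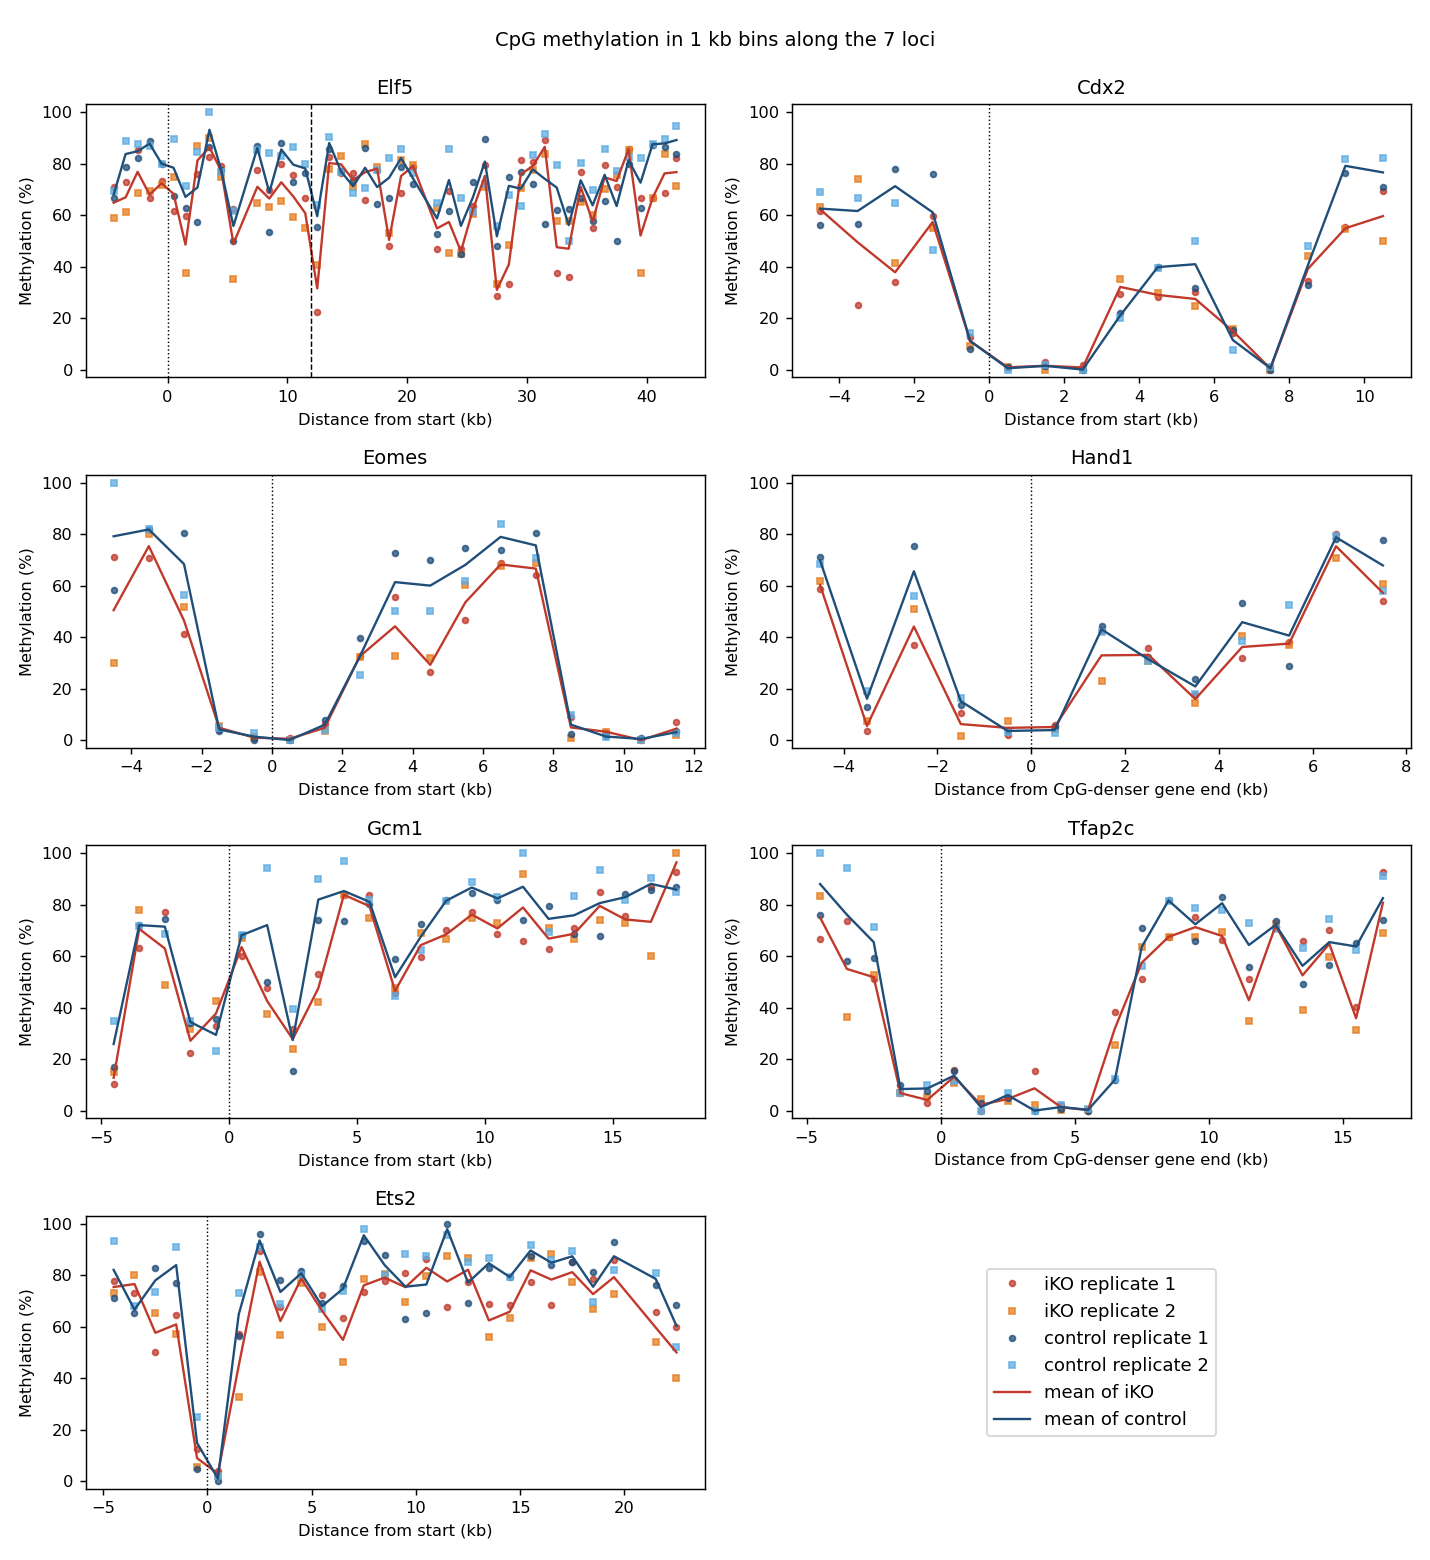
CpG methylation (percent of reads) in 1 kb bins along the 7 loci, by distance in kb from the first start or, for Hand1 and Tfap2c, from the CpG-denser gene end. Points are libraries, lines are group means, the dotted line marks 0 and the dashed line the second Elf5 start. Stretches with a mean under 20% lie at the starts of Cdx2, Eomes and Ets2 and at the chosen ends of Hand1 and Tfap2c, and Elf5 has no bin with a mean under 20%.

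Contrasts of the promoter window with the rest of the locus were positive for the other genes. They were 1.96 points for Cdx2, 4.14 for Eomes, 10.2 for Hand1, 15.1 for Gcm1, 3.29 for Tfap2c and 7.86 for Ets2. Those of Hand1 and Tfap2c are for the CpG-denser gene end, which may not hold the start. For Hand1, Gcm1 and Ets2 the groups did not overlap, and the two-sided exact permutation p was 0.33, as for any groups apart in this design. Single libraries moved the others: without control replicate 1 the contrast was -0.528 points for Cdx2 and 1.32 for Eomes, and without iKO replicate 2 that of Tfap2c was 1.02. As an unweighted mean of CpGs the Cdx2 contrast was -1.11 points. The Gcm1 contrast was 5.64 points, with overlapping groups, for a window of 500 bp on either side of the start. With the window from 250 bp before to 50 bp after the start, those of Tfap2c and Eomes were 13.7 and 1.19 points. The control means of the Eomes, Hand1 and Ets2 windows were 1.09%, 3.58% and 7.15%. Each was smaller than the fall in the rest of its locus (-4.28, -9.38 and -8.83 points), so these windows could not have fallen by as much. Over all genes, the mean level of promoter windows was 25.5% in iKO against 29.5% in control. That of the rest of the locus was 59.7% against 67.8%, a larger fall in points, so the genome-wide means point the same way as these positive contrasts. In proportion to the control level, the fall of the rest of the locus was not larger than that of promoter windows. The share of all genes with a positive contrast, or with groups apart in it, was not computed.

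Further trophoblast genes were taken from 2 lists, named for what their genes are known to do. Of 20 regulators of trophoblast stem cells, 26 of 28 promoter windows lay under 20% in control, 11 had both iKO libraries below both controls (34.3% of all windows), 2 had both above (7.37%), and 0 were called. The 11 include 2 overlapping windows of Wwtr1 and the Zfp42 window already counted among the stem cell genes. The exceptions in level were Esrrb, a nuclear receptor of stem cells, whose first start read 54.1% and 63.3% in iKO against 64.3% and 71.6%, and Satb1, a chromatin organiser. The third start of Satb1 (chr17:51826089-51827588, 14 CpGs) read 44.7% and 55.6% against 76.9% and 77.6%, or -27.1 points (adjusted p = 0.500, limma-moderated fit). The rest of the locus was lower in iKO for 20 of 20, as for 21027 of the 21513 loci of all genes. Of the 20, 12 had an adjusted p under 0.05 and 6 were called (limma-moderated fit), beside 48.9% and 18.9% of all loci. These 6 were Tead4 (-10.7 points), Yap1 (-11.7), Wwtr1 (-11.2), Klf5 (-12.1), Zfp42 (-13.6) and Nodal (-10.8), among them the Hippo effectors Yap1 and Wwtr1 and their partner Tead4. Zfp42 is also 1 of the 4 stem cell genes above, so its call counts in both lists. The median over the 20 was -8.51 points, beside -8.20 over all genes.

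Of 26 genes of trophoblast differentiation and placental products, 25 could be tested, and Synb could not. Of their 28 promoter windows, 9 lay at 60% or more in control and 13 under 20%, where the regulators had 2 at 60% or more. In 10 windows both iKO libraries lay below both controls and in 3 above, beside the same 34.3% and 7.37% of all windows, and 0 were called. The highest control levels were those of Tpbpa, the spongiotrophoblast marker (74.4% and 67.9% against 85.0% and 78.6%), Hsd3b6 (83.3% and 68.6% against 67.4% and 92.0%) and Prl3b1, a placental lactogen (80.0% and 90.0% against 79.3% and 76.7%). The largest falls were at the 2 starts of Plac1, at 44.8% and 60% against 81.5% and 72.7% for the first and 47.6% and 53.8% against 68.8% and 70.6% for the second, and at the second start of Lifr, the LIF receptor (61.1% and 37.2% against 76.0% and 63.8%). Their differences were -24.7, -18.9 and -20.7 points, at adjusted p of 0.500, 0.532 and 0.535 (limma-moderated fit). The rest of the locus was lower in iKO for 25 of 25. Of these, 8 had an adjusted p under 0.05 and 5 were called (limma-moderated fit), beside the same 48.9% and 18.9%. The called ones included Syna (-14.2 points), Cdh3 (-10.3), Peg10 (-12.04) and Lifr (-10.7). The median was -7.69 points.

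Windows with levels close to those of Elf5 in all 4 libraries were found at other genes. Among 20616 windows with at least 10 CpGs and 30 reads in every library, the 5 nearest to the second start by Euclidean distance over the 4 levels were Tlr6 (distance 3.40 points), Pxt1 (3.53), R3hdml (4.34), Fam124b (5.01) and Fgf23 (5.32). The nearest, Tlr6, read 51.1% and 56.5% in iKO against 72.9% and 77.3% in control. For the first start they were Csf1r (2.57), Lcn6 (2.83), Ankrd22 (3.19), 4930583I09Rik (3.202) and Gsdmc (3.28).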

How the data were processed

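DNA of 4 libraries was read by whole-genome bisulfite sequencing. Per the submitters' processing notes the authors used BSMAP, Picard and mm10, with versions not given in the sources used here. The deposited tables give, for each CpG with its strands merged, the count of methylated reads and the count of C or T reads of any kind, per the file headers. A depth corrected for C/T variants, also deposited, is an expected count and was used as an alternative. Each table was matched to its sample by the genotype and replicate in its name.

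Counts were summed with Python 3.11.15, NumPy 2.4.6, pandas 2.3.3 and PyArrow 21.0.0 over promoter windows (from 1000 bp before to 500 bp after each start), the rest of each locus (to 5 kb on either side) and 1 kb bins, and levels are methylated over all reads. Windows and loci needed 5 CpGs and bins 3, with at least 10 reads in every library. Starts came from RefSeq's GRCm38.p6 promoter table for 17274 genes, and for 4357 others, Hand1 and Tfap2c included, the gene end with more listed CpGs was used, which is not the promoter where transcription starts at the other end. The files list 99.3% of the 407620 CGs of those promoters, and 100% of the listed positions inside them are CG.

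A quasi-binomial logistic model in R 4.3.3 had group as its only term, with the dispersion moderated across features by limma 3.58.1 and kept at 1 or more. Benjamini-Hochberg adjustment of its F test ran over all features of a kind, and a call needed an adjusted p under 0.05 and 10 points. Other tests were edgeR 4.0.16 and limma on logit levels (0.5 reads added per side). Scripts were tested on simulated data. SciPy 1.17.1 gave exact permutation tests over the 6 arrangements and 95% Wilson intervals, and a count of 0 was taken to allow 3 reads. The shallow depth, 3.35 to 4.04 reads per CpG, is why reads were pooled over CpGs.

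Named are the 7 members and, in each locus, the bins at the start and the largest fall among bins with groups apart. In each of the 2 trophoblast lists the called genes, and otherwise the 3 largest falls and 3 highest control levels among promoter windows, were taken. The 5 genes nearest to Elf5 complete the rule. The values of 1 called list gene are not reported here. Lists of stem cell promoters and fibroblast genes served as markers. The members and lists were chosen with earlier results of these data known. Lambda DNA was not analysed here.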

Additional observations from a re-analysis of the deposited data

How the results depend on the processing

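The 4067 loci called over all genes became 2509 with a replicate block, 1131 to 8077 when 1 library was left out (1131 without iKO replicate 2, 1716 without control replicate 2 and 8077 without control replicate 1) and 10527 by adjusted p alone. The 4 bins called over all genes became 1 without CpGs of very high depth and 2 with edgeR. They became 0 with limma on logit levels, with a replicate block, with at least 20 reads, with CpGs read in every library, with CpGs of at least 3 reads, and in each of the refits that left out 1 library. The count of called promoter windows over all genes, and of called bins in the 7 loci, was 0 in every alternative run.

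The first Elf5 window differed by 0.0199 points over CpGs read in every library, by -6.63 as an unweighted mean of CpGs and by -10.96 with 500 bp on either side, and the second by -16.0 as an unweighted mean. Over all its alternatives the second ranged from -26.0 to -15.9 points, with adjusted p from 0.436 to 1 (limma and edgeR fits). The first window minus the rest of its locus became -3.01 points with windows of 500 bp on either side and 8.25 over CpGs read in every library, and ranged from -0.846 to 5.46 when 1 library was left out. The Cdx2 contrast became -1.11 as an unweighted mean and ranged from -0.528 to 4.44 when 1 library was left out, and none of the other 5 genes' contrasts changed sign.

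Directions near 0 turned. With 1 library left out, the promoter difference ranged from -1.78 to 0.829 points for Cdx2, -1.22 to 0.953 for Eomes, -1.19 to 2.80 for Hand1, -0.483 to 9.86 for Gcm1, -3.12 to 6.14 for Tfap2c and -4.99 to 3.04 for Ets2, and the rest of the Tfap2c locus from -8.68 to 5.12. Windows of 500 bp on either side gave -0.798 for Hand1, -4.26 for Gcm1 and 0.529 for Ets2. The window from 250 bp before to 50 bp after gave 0.701 for Ets2, 11.5 for Tfap2c and -2.17 for Eomes, and CpGs read in every library gave 0.552 for Cdx2. The cause was not tested. As unweighted means of CpGs, the uncalled promoter differences of Eomes and Ets2 also changed sign, to 0.0723 and 1.225, and that of Cdx2 was -3.84.

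Same-numbered libraries did not deviate together. For this, the deviations of iKO replicate 1 and control replicate 1 from their own group means were correlated over features. The correlation was -0.0348 over promoter windows, -0.0535 over the rest of loci and -0.00837 over bins. With the replicate block the Gcm1 call was lost, and the adjusted p of all 4 loci that had passed rose above 0.05 (0.0812 for Gcm1, 0.0640 for Elf5, 0.122 for Hand1 and 0.0974 for Ets2, limma-moderated fit). CpGs with at least 3 reads in every library left too few for the windows of Elf5, Cdx2 and Ets2, and the window from 250 bp before to 50 bp after left too few for the first Elf5 start and Gcm1. Depth limits what single windows can show: the first Elf5 window read 71.9% in iKO replicate 1 with a Wilson interval of 54.6% to 84.4%.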
